A study of Homo sapiens with 8 samples.

Results

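10 genes of the endoplasmic reticulum (ER) were followed here: the chaperones HSPA5 and HSP90B1, their partners SDF2L1 and DNAJB9, the lectin chaperones CALR and CLGN, the disulfide proteins PDIA4 and CRELD2, the degradation factor HERPUD1 and the transcription factor XBP1. They were chosen by name as chaperones and stress-response genes of this compartment, and make up 10 of 54174 symbols in the deposited table. All 10 had a value in all 8 libraries, and all 10 were among the 9016 genes tested, which had a value in every library and a mean log2 value of at least 1. The values come from RNA sequencing of 143B, an established human cell line derived from a bone tumour (osteosarcoma). In 4 control libraries the cells had received a vector plasmid, and in 4 knockout libraries a plasmid labelled NELL1KO, both with the transfection reagent TransIT-LT1, and RNA was taken 48 h later. The labels describe a transient transfection and name no selection step or clone, so each library may mix cells that took up the plasmid with cells that did not. NELL1 encodes a secreted matrix protein, and the series asks how its loss alters the genes of the extracellular matrix.

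Secreted and membrane proteins enter the ER unfolded. There the Hsp70 protein encoded by HSPA5 (BiP) and the Hsp90 protein encoded by HSP90B1 (GRP94) bind exposed segments, calreticulin and calmegin bind sugar chains, and protein disulfide isomerases form and reshuffle disulfide bonds, while chains that fail to fold are drawn back to the cytosol and degraded. When unfolded proteins pile up, the sensors IRE1, PERK and ATF6 start the unfolded protein response. IRE1 splices XBP1 mRNA into the form that makes an active transcription factor, ATF6 is cut to release another, and PERK slows translation and raises ATF4 and its target DDIT3. In cells that secrete collagen and other matrix proteins this folding load is large. The table gives 1 value per gene, so spliced and unspliced XBP1 cannot be told apart.

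ATF6 and XBP1 act on many of these genes through the ER stress response element (ERSE), which pairs a site for NF-Y with a site for the stress factors. The 300-base windows that RefSeq gives around transcription starts (GRCh38.p14, 250 bases before to 50 after) were searched on both strands for ERSE (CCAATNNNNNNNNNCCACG), for the related ERSE-II (ATTGGNCCACG), for the core of the XBP1 site UPRE (TGACGTGG), for the NF-Y box (CCAAT), which lies inside the first 2 motifs, and for an extended E-box (CCACGTG), which shares the letters CCACG with them. All 10 genes had a window, and PDIA4 and XBP1 had 2. ERSE was found in 5 of the 10 genes (HSPA5, HSP90B1, CALR, CRELD2 and XBP1), against 25 of all 27305 RefSeq genes with a window (0.0916%). ERSE-II was found in 2 of the 10 (SDF2L1 and HERPUD1), against 19 of all genes (0.0696%). The NF-Y box was present in 9 of 10 genes and in 39.7% of all genes. The extended E-box was present in 3 of 10 (HSP90B1, DNAJB9 and HERPUD1) and in 5.12% of all genes, and the UPRE core in 0 of 10 and in 0.927%. A match describes letters in this window and is not a measured binding site. The 250 bases upstream of the start are printed 5′ to 3′ for 4 genes that stand for the patterns described below, each as the strand the gene is transcribed from, with ERSE, ERSE-II and the extended E-box in capitals. In these windows HSPA5 carries an ERSE and HERPUD1 an ERSE-II with an E-box. DNAJB9 carries 2 E-boxes there without either element, and CLGN has none of the 5 motifs there. The gene coordinates given below come from GENCODE, which places some starts farther upstream. The windows of CLGN and DNAJB9 lie wholly inside the GENCODE genes, which start at positions 140427968 and 108569568. Those of HSP90B1 and CRELD2 also lie inside. For these genes the sequence upstream of the GENCODE start was not searched.
HSPA5, chr9:125241344-125241593, minus strand: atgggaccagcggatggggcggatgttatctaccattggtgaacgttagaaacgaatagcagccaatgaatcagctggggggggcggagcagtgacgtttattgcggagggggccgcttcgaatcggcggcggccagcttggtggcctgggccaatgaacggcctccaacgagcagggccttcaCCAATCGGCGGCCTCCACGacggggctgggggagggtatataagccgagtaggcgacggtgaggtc
HERPUD1, chr16:56931892-56932141, plus strand: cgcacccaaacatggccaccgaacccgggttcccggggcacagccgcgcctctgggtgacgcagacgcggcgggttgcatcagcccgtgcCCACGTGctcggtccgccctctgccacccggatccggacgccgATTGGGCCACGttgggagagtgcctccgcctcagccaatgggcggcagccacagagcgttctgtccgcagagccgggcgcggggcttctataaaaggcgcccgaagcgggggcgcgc
DNAJB9, chr7:108569624-108569873, plus strand: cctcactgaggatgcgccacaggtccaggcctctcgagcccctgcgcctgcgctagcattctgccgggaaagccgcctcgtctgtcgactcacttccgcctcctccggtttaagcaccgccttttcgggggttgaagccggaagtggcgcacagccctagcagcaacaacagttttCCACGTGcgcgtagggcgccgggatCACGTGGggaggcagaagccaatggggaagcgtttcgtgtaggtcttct
CLGN, chr4:140427649-140427898, minus strand: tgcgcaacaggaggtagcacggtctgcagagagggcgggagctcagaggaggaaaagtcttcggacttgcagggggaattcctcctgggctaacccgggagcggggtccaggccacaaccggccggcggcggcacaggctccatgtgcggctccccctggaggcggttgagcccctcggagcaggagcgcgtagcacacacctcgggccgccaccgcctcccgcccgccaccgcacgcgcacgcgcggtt

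In HSPA5 the ERSE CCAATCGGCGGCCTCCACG begins 66 bases before the start, and in XBP1 it begins 52 bases before it. HSP90B1 holds 2 copies, beginning 194 and 89 bases upstream. The E-boxes of DNAJB9 begin 74 and 49 bases upstream, and the ERSE-II of HERPUD1 begins 117 bases upstream.

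**Figure D1:**
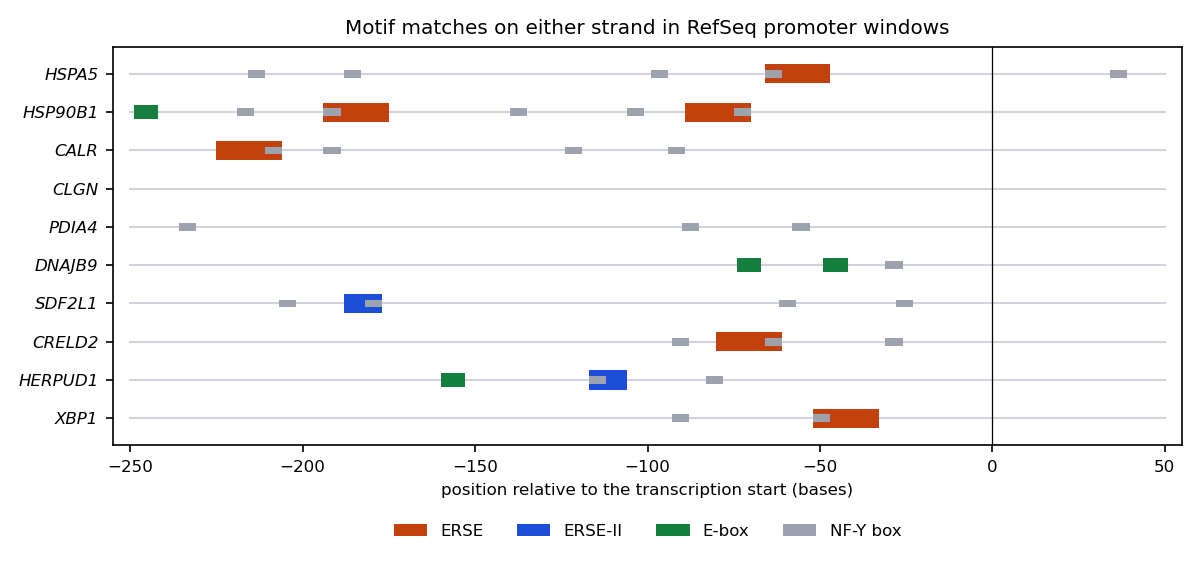
Positions of motif matches in the RefSeq promoter window of each of the 10 genes, in bases relative to the transcription start (x axis); for PDIA4 and XBP1 the farthest upstream of 2 starts is drawn. Orange bars mark ERSE, blue bars ERSE-II, green bars the extended E-box and grey bars the NF-Y box on either strand: 5 genes carry ERSE, 2 carry ERSE-II and the CLGN line is empty.

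The deposited values are log expression per gene, taken as log2 from their range. They had been brought to one distribution in all libraries, with a mean of 1.07 and a median of 1.77 in each. Read depth is therefore unknown, a difference is read against all other genes, and levels are compared within a gene only. Between 14911 and 15171 genes had a value per library. The knockout libraries formed 2 sets that stood apart: across tested genes the SD of the difference was 0.12 between libraries 1 and 2 and 0.13 between libraries 3 and 4, but 0.48 between libraries 1 and 3. The control libraries did not form such sets, with 0.10 between libraries 1 and 2, 0.19 between 3 and 4, 0.29 between 1 and 3 and 0.13 between 2 and 4. The labels give the sets no meaning, and results are given with both sets together and for each. The series calls the replicates biological without saying whether the members of a set share a transfection, so p-values measure the spread between these libraries. NELL1, the targeted gene, lay at log2 -6.97 to -4.53 in the 7 libraries with a value, too low to check the labels. Of 5 mesenchymal markers, VIM (10.2 to 10.9), LGALS1 (9.15 to 9.61) and S100A4 (1.21 to 2.16) were above 1 in every library, while COL1A1 stood at -1.45 to 0.90 and COL1A2 had a value in 4 libraries (-7.55 to -4.82). Of 6 osteoblast markers, SPARC stood at 5.23 to 6.15, RUNX2 at 0.05 to 0.43 and ALPL at -1.75 to -0.34, BGLAP had a value in 3 libraries, and SP7 and IBSP were blank in all 8. Of 4 epithelial markers, KRT18 stood at 8.75 to 9.13 and EPCAM at 1.83 to 2.76, while CDH1 had a value in 2 libraries and KRT5 in 3, none above -6.23. Of 4 leukocyte markers none had a value in all libraries, and 0 of 3 endothelial markers reached a log2 value of 1.

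The major folding genes HSPA5, HSP90B1, PDIA4 and CALR did not pass the test of knockout against control in either set or over all libraries. HSPA5, the ER Hsp70 (GRCh38 chr9:125234853-125241330, minus strand, GENCODE 29), stood at 8.85, 8.83, 8.28 and 8.72 in control libraries 1 to 4. Its knockout values were 8.85, 8.86, 8.08 and 8.91. The groups overlapped, and the lowest library of each was the one numbered 3. The knockout minus control difference over all 8 libraries was 0.00 log2 units (95% interval -0.46 to 0.47, limma adjusted p = 0.993), with 0.01 in the first set and -0.01 in the second. The interval still allows a change of up to 0.47 log2 units upward and 0.46 downward.

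HSP90B1, the ER Hsp90 (chr12:103930107-103953645, plus strand), stood at 10.31, 10.27, 9.82 and 10.20 in the control libraries. In the knockout libraries it was 10.38, 10.32, 10.12 and 10.27. Replicate 3 was again the lowest in both groups, which overlapped, and the difference was 0.13 (95% interval -0.14 to 0.39, adjusted p = 0.513). PDIA4, a disulfide isomerase with several thioredoxin domains that associates with the chaperone complex (chr7:149003062-149028641, minus strand), stood at 8.34, 8.36, 7.88 and 8.24 in the control libraries. Its knockout values were 8.37, 8.40, 7.88 and 7.92. Over all libraries the difference was -0.06 (95% interval -0.42 to 0.30) and did not pass the test. Within the knockout libraries PDIA4 was lower in libraries 3 and 4 than in libraries 1 and 2 (difference -0.49 log2 units, adjusted p = 0.00298). The control libraries gave -0.29 (adjusted p = 0.117). Tested against each other, these contrasts differed by -0.19, which did not pass (limma adjusted p = 0.303).

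CALR, the soluble lectin chaperone calreticulin (chr19:12938578-12944489, plus strand), stood at 9.94, 9.85, 9.76 and 9.80 in the control libraries. In the knockout libraries it was 9.66, 9.79, 9.72 and 9.72. All but 1 knockout value lay below all 4 control values, the exception being 9.79 in knockout library 2. The difference was -0.12 (95% interval -0.27 to 0.04, adjusted p = 0.282). In replicates 1 and 2 CALR gave -0.17 (95% interval -0.33 to -0.02). There limma gave an unadjusted p of 0.0341 and an adjusted p of 0.0661. In replicates 3 and 4 CALR gave -0.06 (adjusted p = 0.512).

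CLGN, DNAJB9 and HERPUD1 behaved differently. All 3 were below every control value in knockout libraries 3 and 4, and none passed the test in replicates 1 and 2. In knockout libraries 1 and 2, CLGN lay above every control, DNAJB9 inside the control range and HERPUD1 below control libraries 1 and 2. CLGN encodes calmegin, a membrane lectin chaperone related to calnexin and best known from the testis (chr4:140388455-140427968, minus strand). Its control values were 3.25, 3.15, 2.09 and 2.92. Its knockout values were 3.38, 3.41, 0.39 and 0.20. Knockout libraries 1 and 2 thus lay above all controls and knockout libraries 3 and 4 below them, and control library 3 was the lowest control. CLGN fell by 2.21 log2 units in replicates 3 and 4 (4.64-fold, SE 0.21, adjusted p = 8.1e-05), and the difference in replicates 1 and 2 was 0.20 (adjusted p = 0.468). From the most negative difference in replicates 3 and 4, CLGN ranked 4 of the 9016 tested genes.

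DNAJB9 encodes ERdj4, a J-domain partner of HSPA5 that takes part in degradation of misfolded chains and in holding IRE1 inactive (chr7:108569568-108574850, plus strand). Its control values were 3.64, 3.49, 3.41 and 3.52. In the knockout libraries it was 3.52, 3.54, 1.99 and 1.81. The first 2 knockout libraries lay inside the control range and the other 2 far below it. DNAJB9 fell by 1.56 log2 units in replicates 3 and 4 (2.96-fold, SE 0.08, adjusted p = 5.36e-06), with a rank of 16 from the most negative of 9016 genes, and the difference in replicates 1 and 2 was -0.04 (adjusted p = 0.747).

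The start of DNAJB9 overlaps that of 2 genes on the opposite strand, THAP5 by 183 bases and PNPLA8 by 99 bases. The libraries came from a stranded kit, but whether strand was used in counting is not given in the sources used here. THAP5, a zinc finger gene, stood at 2.99, 2.90, 2.93 and 2.83 in the control libraries and at 3.20, 3.11, 2.50 and 2.23 in the knockout libraries. It also fell in replicates 3 and 4, by 0.52 (adjusted p = 0.00209). PNPLA8, a phospholipase gene, fell there by 0.36 (adjusted p = 0.00624). Reads shared between these genes and DNAJB9 cannot be told apart in the table.

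HERPUD1 encodes a ubiquitin-like ER membrane protein that organises the HRD1 degradation complex (chr16:56932048-56944863, plus strand). Its control values were 6.72, 6.79, 6.44 and 6.67. In the knockout libraries it was 6.56, 6.60, 5.87 and 5.90. Control library 3 was the lowest control, below knockout libraries 1 and 2, and knockout libraries 3 and 4 lay below all other libraries. HERPUD1 fell by 0.67 log2 units in replicates 3 and 4 (1.59-fold, SE 0.08, adjusted p = 0.000258), and the difference in replicates 1 and 2 was -0.18 (adjusted p = 0.0999). Over all 8 libraries it was -0.42 (95% interval -0.85 to 0.00, adjusted p = 0.170), the smallest adjusted p among the 10 genes.

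**Figure D2:**
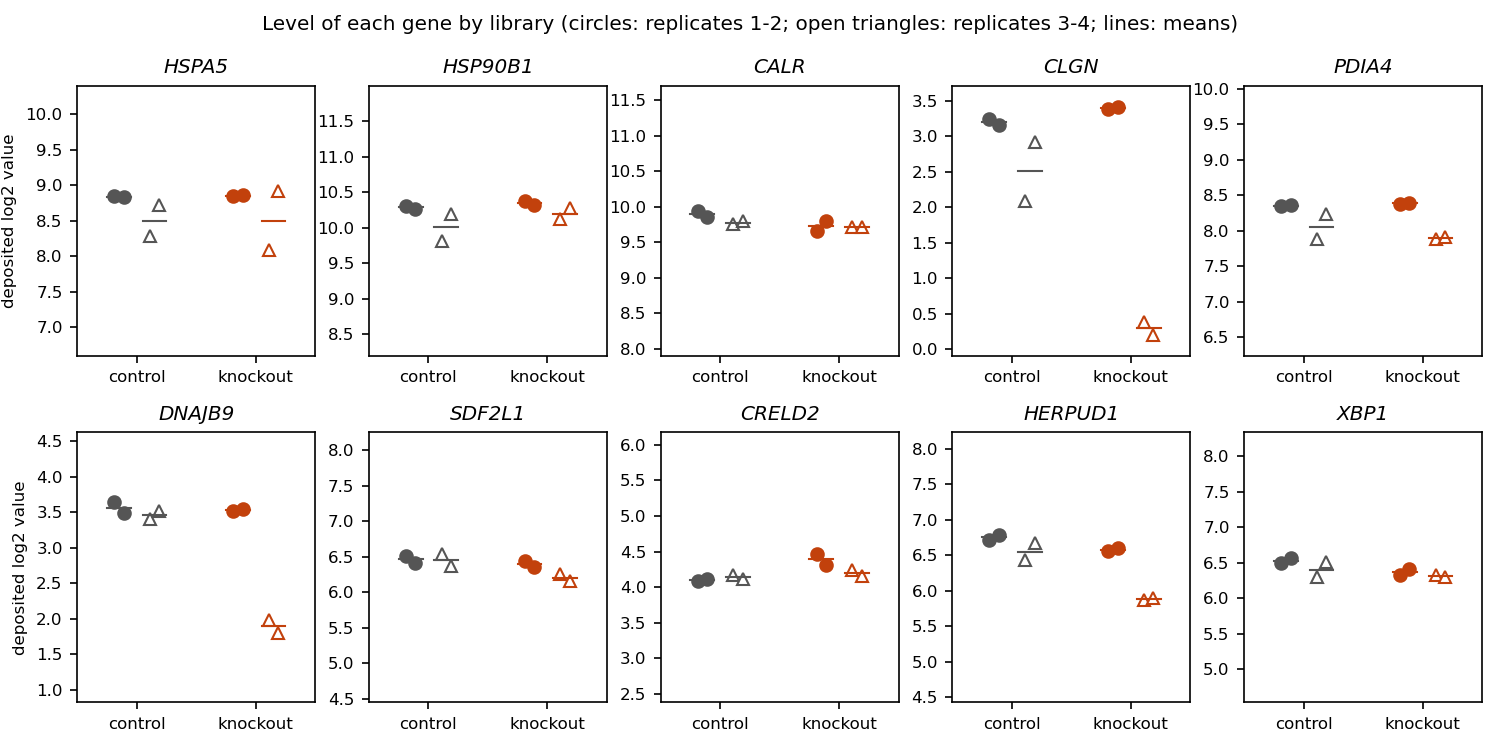
Deposited log2 value (y axis, each panel spanning the same number of log2 units) of each of the 10 genes in control and knockout libraries 1 to 4 (x axis); points are single libraries and no error bar is drawn. CLGN (0.39 and 0.20), DNAJB9 (1.99 and 1.81) and HERPUD1 (5.87 and 5.90) drop in knockout libraries 3 and 4, whereas HSPA5 is lowest in the libraries numbered 3 of both groups (8.28 and 8.08).

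The other 3 genes had smaller differences. SDF2L1, part of the HSPA5 complex and a partner of J-domain proteins (chr22:21642261-21644298, plus strand), stood at 6.51, 6.42, 6.54 and 6.37 in the control libraries. In the knockout libraries it was 6.45, 6.36, 6.25 and 6.16. In replicates 3 and 4, whose groups did not overlap, SDF2L1 fell by 0.25 (1.19-fold, adjusted p = 0.0309). That call was lost without control library 3 (adjusted p = 0.118), knockout library 3 (0.0546) or knockout library 4 (0.164).

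CRELD2, a stress-inducible disulfide isomerase-like protein (chr22:49918167-49927540, plus strand), stood at 4.08, 4.12, 4.17 and 4.12 in the control libraries. In the knockout libraries it was 4.47, 4.31, 4.24 and 4.16. Knockout library 4 lay just below control library 3, the other 3 knockout libraries above all controls. CRELD2 rose by 0.29 in replicates 1 and 2 (1.22-fold, adjusted p = 0.0103), and the difference was 0.05 in replicates 3 and 4 (adjusted p = 0.581). Without control library 1 or knockout library 1 the adjusted p in replicates 1 and 2 was 0.0668 and 0.101. CRELD2 overlaps ALG12 on the opposite strand by 292 bases, and ALG12 gave -0.0028 in replicates 1 and 2 (adjusted p = 0.980). XBP1 (chr22:28794555-28800597, minus strand) stood at 6.49, 6.57, 6.30 and 6.51 in the control libraries and at 6.33, 6.41, 6.33 and 6.30 in the knockout libraries, overlapping the controls. Its difference was -0.12 (adjusted p = 0.307).

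Over all 8 libraries, none of the 10 genes passed the test of knockout against control (0 at limma adjusted p under 0.05, and 0 at unadjusted p under 0.05). In the same fit 13.1% of tested genes were called, 7.02% higher and 6.1% lower. The groups did not overlap for 0 of the 10 genes and for 22.9% of tested genes. The median difference of the 10 was -0.12 against 0.01 over all tested genes, and the median absolute difference was 0.14 against 0.16. The intervals for CLGN (-2.78 to 0.76) and DNAJB9 (-1.71 to 0.11) were the widest of the 10.

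Within replicates 1 and 2, 1 of the 10 genes was called, CRELD2, higher in the knockout. There 47.9% of tested genes were called, 26.6% of tested genes being higher. Within replicates 3 and 4, 4 of the 10 were called, CLGN, DNAJB9, HERPUD1 and SDF2L1, all lower, where 44.1% of tested genes were called, 21.3% higher and 22.8% lower. The count of 4 in 10 called in either direction is close to the share over all genes. The median difference of the 10 in replicates 3 and 4 was -0.12, against 0.00 over all tested genes.

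The difference of the knockout effect between the sets was itself tested, as the effect in replicates 3 and 4 minus that in replicates 1 and 2. It passed for 3 of the 10 genes, where 41.3% of tested genes passed and 22.9% were lower in replicates 3 and 4. CLGN differed by -2.41 (SE 0.30, 95% interval -3.08 to -1.74, adjusted p = 0.000451). DNAJB9 differed by -1.53 (SE 0.12, 95% interval -1.80 to -1.26, adjusted p = 6.95e-05). HERPUD1 differed by -0.49 (95% interval -0.75 to -0.23, adjusted p = 0.00903). The calls for these 3 genes held when each library was left out in turn. HSPA5 (-0.02, adjusted p = 0.969), HSP90B1 (0.13, adjusted p = 0.546), CALR (0.11, adjusted p = 0.383) and XBP1 (0.07, adjusted p = 0.634) did not pass. Nor did PDIA4 (-0.19, adjusted p = 0.303), SDF2L1 (-0.18, adjusted p = 0.214) and CRELD2 (-0.24, adjusted p = 0.0937). Without control library 3, PDIA4 also passed (-0.37, adjusted p = 0.00654), and without control library 4 so did HSP90B1 (0.32, adjusted p = 0.0314). The share of 3 in 10 is below that of all tested genes.

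**Figure D3:**
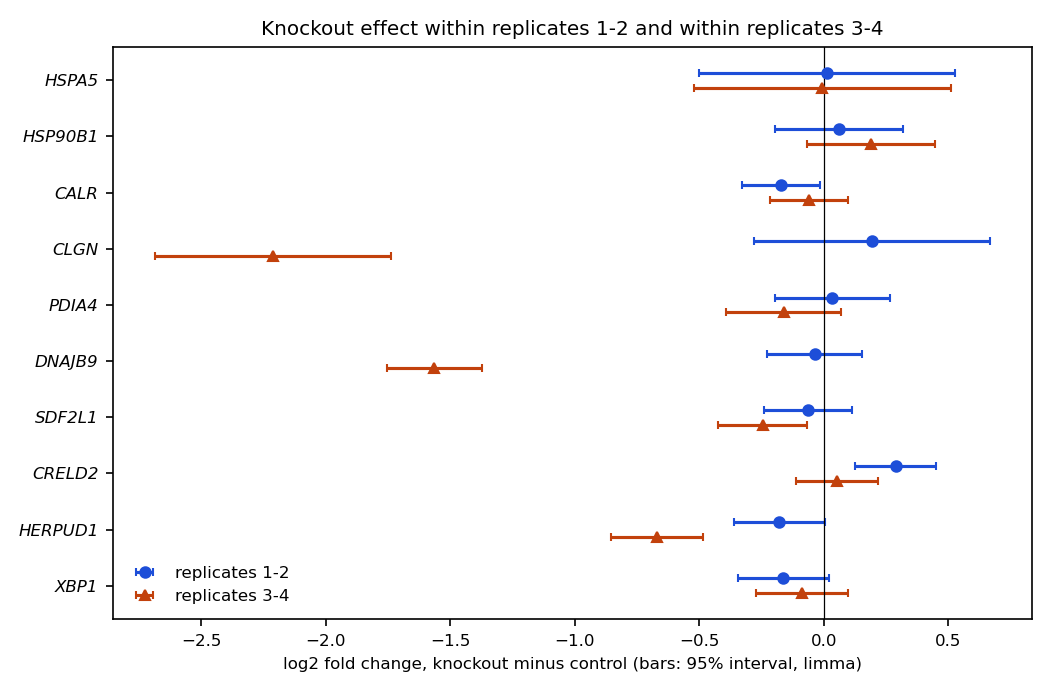
Knockout minus control difference (log2) of each of the 10 genes in replicates 1 and 2 and in replicates 3 and 4, with 95% intervals from limma as bars. The sets lie far apart for CLGN (0.20 and -2.21) and DNAJB9 (-0.04 and -1.56) and less so for HERPUD1 (-0.18 and -0.67), while HSPA5 stays beside the zero line (0.01 and -0.01).

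Comparing knockout libraries 3 and 4 with knockout libraries 1 and 2, all 10 genes had a negative difference (median -0.28, against -0.01 over all tested genes). Of the 10, 5 passed the test, where 59.6% of all tested genes passed. These were CLGN (-3.10, adjusted p = 6.52e-06), DNAJB9 (-1.63, adjusted p = 1.81e-06), HERPUD1 (-0.70, adjusted p = 0.000109), PDIA4 (-0.49) and CRELD2 (-0.19, adjusted p = 0.0461). Among the control libraries 9 of the 10 also had a negative difference between the same replicates (median -0.17, against 0.01 over all tested genes). There 0 of 10 passed, with 4 at unadjusted p under 0.05, where 0.643% of all tested genes passed. CLGN gave the largest control difference, -0.69 (adjusted p = 0.0881). Of the 5 genes with an ERSE (HSPA5, HSP90B1, CALR, CRELD2 and XBP1), 0 passed the limma test of the difference between sets (1, CRELD2, at unadjusted p under 0.05), where 41.3% of all tested genes passed. Of the 3 genes that passed it, HERPUD1 holds an ERSE-II with an E-box, DNAJB9 the 2 E-boxes and CLGN none of the motifs in its window. SDF2L1, which also holds an ERSE-II, did not pass it (limma adjusted p = 0.214). HSP90B1, which also holds an E-box, did not pass it either (adjusted p = 0.546). For CLGN and DNAJB9 the sequence upstream of the GENCODE start was not searched. Whether motif and call go together was not tested.

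Across the 8 libraries the values of CLGN, DNAJB9 and HERPUD1 ran together (Pearson r = 0.97 for CLGN and DNAJB9, 0.96 for CLGN and HERPUD1 and 0.96 for DNAJB9 and HERPUD1), and all 3 were lowest in knockout libraries 3 and 4. PDIA4 gave 0.89 with CLGN and 0.82 with HERPUD1, and SDF2L1 gave 0.85 with DNAJB9 and 0.75 with HERPUD1. HSPA5 and HSP90B1 gave r = 0.76, and CALR and CRELD2 -0.71. These describe 8 libraries that share their set structure and normalization. CLGN, DNAJB9 and HERPUD1 were grouped by their drop in knockout libraries 3 and 4, so their high correlations are not a separate result. The tested genes outside the 10 whose values were most like those of HSPA5 over the 8 libraries were RPS3, a ribosomal protein gene (r = 0.94), GDNF, a growth factor gene (0.93), AATF (0.90), ACTR2, a subunit of the Arp2/3 actin complex (0.90), and HIF1AN (0.89).

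The rest of the pathway was described with lists written from general knowledge. Outside the 10 genes, 130 ER folding, degradation, stress sensing and translocation genes had a value and 121 were tested. Over all 8 libraries 14 of the 121 were called, 3 higher and 11 lower (11.6%, where 13.1% of all tested genes were called), and the median difference was -0.11 against 0.01. The count was 29 (24 lower) with a term for the sets, 8 with the replicate number as a block and 0 once each close pair of knockout libraries was averaged (24 at unadjusted p under 0.05 in limma). With 1 library left out it ran from 2 to 19, being 4 without control 1, 3 without control 2, 19 without control 3, 2 without control 4, 8 without knockout 2, 6 without knockout 3 and 10 without knockout 1 or 4. In replicates 3 and 4, 62 of the 121 were called, 51 of them lower (51.2%, where 44.1% of all tested genes were called and 22.8% were lower), and the median was -0.16 against 0.00. That count was 37 (33 lower) when replicates 3 and 4 were fitted alone, 41 without knockout library 3 and 40 without knockout library 4. In replicates 1 and 2, 43 were called, 15 higher and 28 lower (35.5%, where 47.9% of all tested genes were called, 26.6% higher and 21.3% lower), and 64 when those replicates were fitted alone. The test between sets passed for 49 of the 121, 18 higher and 31 lower in replicates 3 and 4 (40.5%, where 41.3% of all tested genes passed, 18.4% higher and 22.9% lower), and for 31 without control library 1 or 2, 27 without knockout library 1 and 32 without knockout library 4.

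Among the partners of HSPA5 and HSP90B1, 0 of 8 other Hsp70 and Hsp90 machinery genes were called over all libraries by limma (3 at unadjusted p under 0.05), where 13.1% of all tested genes were. The second set, replicates 3 and 4, had 3 of the 8 lower (37.5% called, against 44.1% of all tested genes). SIL1, the nucleotide exchange factor of HSPA5, differed between sets, with 0.31 in replicates 1 and 2 and -0.18 in replicates 3 and 4 (difference -0.49, adjusted p = 0.0140, and 0.0626 without knockout library 1). Of 11 other ER J-domain genes, 0 were called over all libraries by limma (1 at unadjusted p under 0.05). The second set had 5 of the 11 lower (45.5% called, again against 44.1%). DNAJC25 rose by 0.59 in replicates 1 and 2 and fell by 0.40 in replicates 3 and 4 (difference -0.998, adjusted p = 0.00021). DNAJB14 gave 0.28 and -0.72 in the same sets (difference -0.99, adjusted p = 0.000529). Its control values were 1.98, 1.72, 1.64 and 1.66 and its knockout values 2.16, 2.10, 1.00 and 0.87, so that knockout libraries lay above all controls in the first set and below them in the second.

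Of 8 other genes of the lectin cycle, 0 were called over all libraries by limma (1 at unadjusted p under 0.05, where 13.1% of all tested genes were called). In replicates 1 and 2, 4 of the 8 fell (50% called, against 47.9% of all tested genes), and in replicates 3 and 4, 1 rose and 1 fell (25% called, against 44.1%). UGGT1 and UGGT2, which return unfolded glycoproteins to CALR and its relatives, fell by 0.39 and 0.62 in replicates 1 and 2, with values of 0.04 and -0.12 in replicates 3 and 4. Their differences between sets were 0.43 and 0.50 (limma adjusted p = 0.0283 and 0.0212). Neither passed without the filter on low values (0.0799 and 0.0694). The test between sets passed for 4 of the 8, all with the higher value in replicates 3 and 4 (50%, against 41.3% of all tested genes). Of 22 other disulfide oxidoreductase genes, TMX2 rose (0.24, adjusted p = 0.0423) and TXNDC11 fell (-0.28, adjusted p = 0.0297) over all libraries (9.09% called). The call of TMX2 was lost whichever library was left out (adjusted p = 0.0557 to 0.112), and that of TXNDC11 in 6 of 8 such fits (up to 0.0992). ERO1B, an oxidase that recharges the isomerases, fell by 0.61 in replicates 3 and 4 (adjusted p = 0.00257), with -0.08 in replicates 1 and 2. Its difference between sets (-0.53, limma adjusted p = 0.0282) did not pass after further quantile normalization (0.0944). Nor did it pass without the filter on low values (0.0893). QSOX1, a secreted sulfhydryl oxidase, rose by 0.53 in replicates 1 and 2, with 0.03 in replicates 3 and 4.

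Of 12 prolyl isomerase and collagen chaperone genes, which serve matrix proteins, 1 rose and 1 fell over all libraries (16.7% called, against 13.1% of all tested genes). SERPINH1, the collagen chaperone HSP47, stood at 5.01, 5.03, 5.10 and 5.02 in the control libraries and at 4.71, 4.66, 4.54 and 4.63 in the knockout libraries. Every knockout value lay below every control value, and SERPINH1 fell by 0.40 (adjusted p = 0.00696). PPIC, a cyclophilin, rose by 0.34 (adjusted p = 0.0310), a call lost in 6 of 8 fits with 1 library left out (up to 0.0983). Its sets differed, with 0.19 in replicates 1 and 2 and 0.50 in replicates 3 and 4 (difference 0.31, adjusted p = 0.0336). PPIB, the ER cyclophilin that works with the collagen hydroxylation complex, rose by 0.39 in replicates 3 and 4 (adjusted p = 0.0047) and gave -0.11 in replicates 1 and 2. P4HA2, a collagen prolyl hydroxylase subunit, fell by 0.56 in replicates 1 and 2 and gave -0.08 in replicates 3 and 4. Its difference between sets (0.47, limma adjusted p = 0.0147) did not pass without the filter on low values (0.0510).

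Of 26 other degradation genes, 1 rose and 4 fell over all libraries (19.2% called, against 13.1% of all tested genes), and 3 rose and 13 fell in replicates 3 and 4 (61.5%, against 44.1%, of which 22.8% lower). HERPUD2, the relative of HERPUD1, stood at 2.61, 2.57, 2.80 and 2.71 in the control libraries and at 2.38, 2.31, 2.11 and 2.10 in the knockout libraries. It lay below every control in all 4 knockout libraries, and fell by 0.45 (adjusted p = 0.0171). It fell by 0.24 in replicates 1 and 2 and by 0.66 in replicates 3 and 4. SELENOS, a membrane selenoprotein of the same complex, fell by 0.43 (adjusted p = 0.0197), and UFD1, a cofactor of the extraction ATPase VCP, rose by 0.27 (adjusted p = 0.0254). EDEM1, which steers glycoproteins to degradation, fell by 0.74 in replicates 1 and 2 and gave -0.11 in replicates 3 and 4 (difference 0.63, adjusted p = 0.00182).

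Of 16 other stress sensors and transcription factors, 4 fell over all libraries (25% called, against 13.1% of all tested genes), and 10 fell and 1 rose in replicates 3 and 4 (68.8%, against 44.1%, of which 22.8% lower). EIF2AK3, the sensor PERK, fell by 0.29 (adjusted p = 0.0187), with -0.30 and -0.28 in the 2 sets. MBTPS1, a protease that activates ATF6, fell by 0.31 (adjusted p = 0.0462). Its sets differed, with -0.48 in replicates 1 and 2 and -0.15 in replicates 3 and 4 (difference 0.34, adjusted p = 0.0264). DDIT3 (CHOP) stood at 5.54, 5.57, 4.26 and 5.20 in the control libraries and at 5.89, 5.84, 1.55 and 1.54 in the knockout libraries. As with CLGN, the first 2 knockout libraries were above all controls, the other 2 were far below, and control library 3 was the lowest control. DDIT3 fell by 3.18 in replicates 3 and 4 (adjusted p = 1.97e-05) and gave 0.31 in replicates 1 and 2 (difference -3.49, adjusted p = 0.000132). TRIB3, a pseudokinase induced downstream of DDIT3, fell by 1.25 in replicates 3 and 4 and rose by 0.23 in replicates 1 and 2 (difference -1.48, adjusted p = 7.58e-05).

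Of 19 translocon and signal peptidase genes, 1 fell over all libraries, SEC61A1 (-0.28, adjusted p = 0.0324), the channel through which new chains enter the ER (5.26% called, against 13.1% of all tested genes). Within replicates 3 and 4, 12 fell and 1 rose (68.4% called, against 44.1%, of which 22.8% lower), those that fell including TRAM1 (-0.71) and SPCS3 (-0.62), where replicates 1 and 2 gave 0.00 and 0.07. Of the 12 genes named in these lists for a change over all libraries, HSPE1 and HSPH1 of the cytosolic and mitochondrial list included, EIF2AK3, HERPUD2, MBTPS1, PPIC, SEC61A1, TMX2, TXNDC11 and UFD1 missed the threshold with the replicate block (adjusted p = 0.0536 to 0.0918), and all 12 missed it once the close knockout libraries were averaged (0.0624 to 0.189). With 1 library left out, HSPE1, HSPH1 and SERPINH1 passed in all 8 fits. HERPUD2 failed without control 4, and EIF2AK3 and SELENOS each failed without control 1, 2 or 4. MBTPS1, PPIC, SEC61A1, TXNDC11 and UFD1 each failed in 6 of the 8 fits, controls 1, 2 and 4 among them, and TMX2 in all 8.

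Chaperones outside the ER were set beside these as a comparison. Of 29 cytosolic and mitochondrial chaperone genes, 3 rose and 0 fell over all libraries, with a median of 0.11 (10.3% called, against 13.1% of all tested genes, of which 7.02% higher). HSPE1, the mitochondrial co-chaperonin, stood at 6.39, 6.37, 6.40 and 6.61 in the control libraries and at 6.91, 6.83, 6.92 and 6.99 in the knockout libraries. Every knockout value lay above every control value, with a rise of 0.47 (adjusted p = 0.00815). HSPH1, a cytosolic Hsp110, rose by 0.43 (adjusted p = 0.00474), also with no overlap between groups. HSPA8, the constitutive cytosolic relative of HSPA5, fell by 0.67 in replicates 3 and 4 (adjusted p = 0.00054) and gave 0.19 in replicates 1 and 2. BAG3, a cochaperone of cytosolic Hsp70, went the other way, with -0.74 in replicates 1 and 2 and 0.34 in replicates 3 and 4 (difference 1.08, adjusted p = 0.000239).

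**Figure D4:**
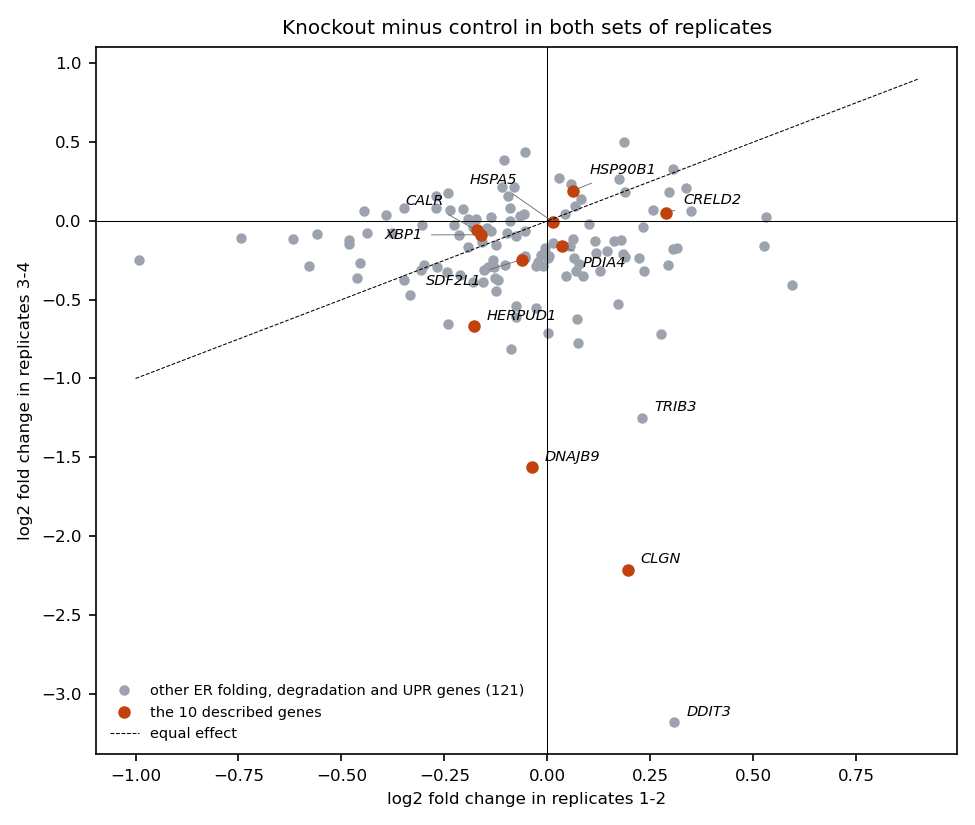
Knockout minus control difference (log2) in replicates 1 and 2 (x axis) against replicates 3 and 4 (y axis) for the 10 genes and for the tested genes of the other lists, 1 point per gene; the axes have different scales and the dashed line marks equal differences. CLGN (0.20 and -2.21), DNAJB9 (-0.04 and -1.56), DDIT3 (0.31 and -3.18) and TRIB3 (0.23 and -1.25) lie far below that line.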

How the data were processed

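RNA-seq values of 4 control and 4 knockout libraries were analysed, with groups and replicate numbers from the sample titles. The authors deposited 1 log2 value per symbol and library. The submitters' processing notes name bcl2fastq, Partek 7.0 and the build GRCh38, while the aligner, the unit before the logarithm and the rule for blank cells are not given in the sources used here. Equal means and medians in all libraries show a quantile-type normalization, which hides global shifts. Without counts, depth and counting error are unknown, and count models were not used.

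Blank cells were treated as missing. limma 3.58.1 in R 4.3.3 was fitted to the 9016 genes that had no blank cell and averaged 1 or more, first as knockout minus control, then with separate means for replicates 1 and 2 and replicates 3 and 4, their knockout effects and the difference of these effects. P-values were adjusted by Benjamini-Hochberg over all tested genes, with a threshold of 0.05, and the fits were tested on simulated data. The simulated libraries were independent and held no close pairs, so error rates under the paired structure of the knockout libraries were not tested. The members and lists were chosen with earlier results of these data known, as was the split into sets.

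Besides the 10 genes, the text names in each list up to 2 called genes with the largest rise and up to 2 with the largest fall over all libraries, the 2 called genes with the largest difference between sets, and the 5 genes most correlated with HSPA5. THAP5 and PNPLA8 (overlapping starts) and the genes with an ERSE in the closing section were chosen after values were seen. Same-numbered control and knockout libraries deviated together from their group means (r = 0.20 to 0.29, mean 0.25), so a fit blocked on replicate number was run. Other numbers of the same set gave a mean of 0.23 and the other set -0.24, and 1 of 4 knockout libraries was closest to its own number. Alternatives changed the filter, scaling, pseudocount, variance model, threshold and libraries. Leaving out both libraries numbered 3 and recomputing the results within sets were added after seeing the data.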

Additional observations from a re-analysis of the deposited data

Results flagged for a closer look

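For 3 of the 10 genes the knockout effect differed between the replicate sets by a limma test of the difference itself: CLGN by -2.41, DNAJB9 by -1.53 and HERPUD1 by -0.49 log2 units (replicates 3 and 4 minus replicates 1 and 2), each lower in both knockout libraries of the second set. The test passed for 41.3% of all tested genes.

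In 6 of the 80 groups of 4 libraries examined (40 named genes, control and knockout), 1 library stood far from the other 3, where chance marks about 1 in 20 groups. HSPA5 was 8.08 in knockout library 3, with the other knockout libraries at 8.85 to 8.91. SIL1 was 3.92 and PPIB 9.32 in control library 3, both the lowest control. CNPY4, a small saposin-like ER protein gene, was 1.17 in control library 2. HSPE1 was 6.61 and HSPH1 3.58 in control library 4, both the highest control and still below every knockout library.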

How the results depend on the processing

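The count of genes called over all 8 libraries (1183) was 272 at an adjusted p under 0.01, 108 with the close knockout libraries averaged, 729 with a mean of at least 3, 5380 in replicates 1 and 2 alone, 2987 in replicates 3 and 4 alone, 2274 with a set term, and 391 (without control 4) to 1353 with 1 library left out. Of the 10 genes, 4 were called in replicates 1 and 2 alone, 3 in replicates 3 and 4 alone and 1 (HERPUD1, adjusted p = 0.0239) with the set term. The count differing between sets (3721) was 2102 at an adjusted p under 0.01, 2023 with a mean of at least 3, and 2420 (without knockout 1) to 4368 with 1 library left out. For the 10 genes it was 3 or 4 there, and 2 with a mean of at least 3, which drops CLGN. Their count in replicates 1 and 2 (1) was 0 at an adjusted p under 0.01, 2 after median centring, with a mean of at least 3, a pseudocount of 1 or a variance trend, 4 in those replicates alone, 0 (without control 1 or knockout 1) to 4 (without control 3 or 4) with 1 library left out, and 4 without both libraries numbered 3. In replicates 3 and 4 it was 3 to 5 with 1 library left out.

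With the replicate block, 924 genes were called over all libraries and 3554 between sets, and the block changed no call of the 10 genes in any of these comparisons. CLGN (-2.92 to -1.77), DNAJB9 (-1.68 to -1.31) and HERPUD1 (-0.61 to -0.38) kept their calls between sets under every alternative that tested them.

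Some values of single genes changed sign, and the cause was not tested. HSPA5 over all libraries was -0.00058 after further quantile normalization, -0.0028 after median centring, -0.0050 in replicates 3 and 4 alone and -0.13 to 0.20 with 1 library left out. CLGN was 0.20 and PDIA4 0.035 in replicates 1 and 2 alone, and PDIA4 -0.17 to 0.024 with 1 library left out. Between sets HSPA5 was 0.00047 after median centring, 0.18 without both libraries numbered 3 and -0.43 to 0.40 with 1 library left out, HSP90B1 -0.063 to 0.32, and XBP1 -0.047 without both libraries numbered 3 and -0.033 to 0.18 otherwise. In replicates 1 and 2 HSPA5 was -0.00018 after quantile normalization and -0.0030 after median centring, and DNAJB9 -0.11 to 0.040. In replicates 3 and 4 the ranges with 1 library left out were -0.42 to 0.41 for HSPA5 (0.19 without both numbered 3), -0.0016 to 0.38 for HSP90B1, -0.34 to 0.019 for PDIA4 and -0.21 to 0.019 for XBP1.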

Other observations

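Outside the 10 genes, 37 other genes had an ERSE or ERSE-II in a RefSeq promoter window, a list drawn up after the values were seen. Of the 18 tested, 3 were called over all 8 libraries, 1 higher and 2 lower, where 13.1% of all tested genes were called. In replicates 3 and 4, 11 of the 18 were called, 5 higher and 6 lower, against 44.1% of all tested genes. Between sets 7 of the 18 passed, 4 with the higher and 3 with the lower value in replicates 3 and 4, against 41.3%. The 6 that fell in replicates 3 and 4 were FICD, the enzyme that modifies and inactivates HSPA5 (-1.10), ERO1B (-0.61), SERP1, a translocon protein (-0.58), ZNF143 (-0.55), EIF2A (-0.33) and HYOU1, an ER Hsp110 (-0.31). The 5 that rose there were TMEM120A (0.72), SHCBP1 (0.36), RUVBL2 (0.29), the glycogen synthase gene GYS1 (0.28) and the actin-bundling gene PLS3 (0.19). Over all libraries FICD (-0.75, limma adjusted p = 0.0291) and ZNF143 (-0.51, adjusted p = 0.0371) fell and RUVBL2 rose (0.22, adjusted p = 0.0480). These 3 calls were not checked under the alternative settings. The sets of FICD differed, with -0.39 in replicates 1 and 2 (difference -0.72, limma adjusted p = 0.00768).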
